A study of Mus musculus with 6 samples.

Results

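The genes described here are 10 parts of the machinery that presents peptides on MHC class I molecules: the classical heavy chains H2-K1 and H2-D1, the light chain B2m, the peptide transporter subunits Tap1 and Tap2, the loading factor Tapbp, the transactivator Nlrc5, and the immunoproteasome subunits Psmb8, Psmb9 and Psmb10. A probe set, the array's unit of measurement, was taken for a gene when its annotated symbols were or included that gene. Where several qualified, the one with the highest mean over the 6 arrays was used. On the array, 30 of 35512 probe sets named one of these genes, and the rule gave 9 probe sets for the 10 genes. They were read beside 19938 genes with a probe set of their own.

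The samples were B lineage cells of Em-Myc (Eµ-Myc) mice, whose Myc transgene is driven by the enhancer of the immunoglobulin heavy chain locus, so that the oncogene is on in developing B cells. All 3 groups carried this transgene, and each had 2 Affymetrix Mouse Gene 1.0 ST arrays. One group held splenic B cells of premalignant mice with no hairpin, from 2 independent preparations. The other groups held primary B cell lymphomas with a short hairpin RNA that targets Ezh2, the catalytic subunit of polycomb repressive complex 2, as shEzh2.781 in one and as shEzh2.556 in the other. The sources used here give no age, sex or strain, and do not give whether lymphomas with the same hairpin were taken from different mice. The p-values therefore measure only how far these samples spread, and that spread may be technical. A lymphoma without an Ezh2 hairpin was not analysed here, so malignancy and the hairpin cannot be told apart. The lymphomas had been enriched with CD43 beads to a purity of at least 95% B220 and GFP positive cells, so the preparation of the cells cannot be told apart from the group either. These are bulk samples, in which fewer cells of a type and less RNA per cell cannot be told apart.

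MHC class I molecules show peptides from inside the cell to CD8+ T cells. Proteins are cut by the proteasome, which in lymphoid cells and under interferon gamma carries the inducible catalytic subunits encoded by Psmb8, Psmb9 and Psmb10. The peptides are pumped into the endoplasmic reticulum by the Tap1 and Tap2 transporter, held near it by tapasin, the product of Tapbp, and bound by a heavy chain paired with beta-2 microglobulin. Nlrc5 drives transcription of most of these genes through a protein complex on their promoters, and interferon signalling and NF-kB add to it. Class I is carried by nearly all nucleated cells, so these genes are not markers of B cells.

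Of the 10 genes, 7 lie on chromosome 17, 2 on chromosome 8 and 1 on chromosome 2, by the RefSeq annotation of GRCm38.p6. H2-K1 spans chr17:33996012-34000619 and H2-D1 chr17:35263094-35267497. Tapbp spans chr17:33919478-33929290. Psmb9 (chr17:34182030-34187330), Tap1 (chr17:34187556-34197225), Psmb8 (chr17:34198195-34201454) and Tap2 (chr17:34204479-34216321) follow each other directly in the class II region. B2m lies at chr2:122147687-122153082, Nlrc5 at chr8:94434335-94527272 and Psmb10 at chr8:105935728-105938392.

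Promoter sequence was available for 8 of the 10 genes and not for Nlrc5 and Tap2. Of the 4 printed here, those of H2-K1, H2-D1 and B2m are shown for a spacing of motif letters that they share, and that of Tap1 for the stretch it shares with Psmb9. Each is the 250 bases before the RefSeq start in GRCm38.p6, read 5′ to 3′ on the gene's strand. H2-K1 is chr17:34000348-34000597 on the minus strand, H2-D1 is chr17:35262844-35263093 on the plus strand, B2m is chr2:122147437-122147686 on the plus strand and Tap1 is chr17:34187306-34187555 on the plus strand. Capitals mark every match, on either strand, to an interferon-stimulated response element (GAAA, any 2 bases, then GAAA), a kB site (GGG, any 5 bases, then CC), the X2 box core (TGACG), the Y box core (CCAAT) or a gamma-activated site (TTCNNNGAA). Overlapping matches run together in one capital stretch.
H2-K1: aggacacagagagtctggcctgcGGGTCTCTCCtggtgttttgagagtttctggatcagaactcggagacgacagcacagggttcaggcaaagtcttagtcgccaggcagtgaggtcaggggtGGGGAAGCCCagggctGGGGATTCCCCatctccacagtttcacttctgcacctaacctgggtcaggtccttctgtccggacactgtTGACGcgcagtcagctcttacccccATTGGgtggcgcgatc
H2-D1: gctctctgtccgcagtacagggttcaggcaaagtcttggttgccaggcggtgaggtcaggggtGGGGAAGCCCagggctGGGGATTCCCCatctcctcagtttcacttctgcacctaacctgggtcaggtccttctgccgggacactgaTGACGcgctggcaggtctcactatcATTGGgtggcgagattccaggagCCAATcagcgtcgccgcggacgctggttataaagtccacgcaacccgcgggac
B2m: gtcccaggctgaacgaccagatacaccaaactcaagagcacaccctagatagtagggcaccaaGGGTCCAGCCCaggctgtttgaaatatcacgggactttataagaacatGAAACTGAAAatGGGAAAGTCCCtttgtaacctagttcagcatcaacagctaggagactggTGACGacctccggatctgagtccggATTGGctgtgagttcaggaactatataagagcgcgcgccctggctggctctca
Tap1: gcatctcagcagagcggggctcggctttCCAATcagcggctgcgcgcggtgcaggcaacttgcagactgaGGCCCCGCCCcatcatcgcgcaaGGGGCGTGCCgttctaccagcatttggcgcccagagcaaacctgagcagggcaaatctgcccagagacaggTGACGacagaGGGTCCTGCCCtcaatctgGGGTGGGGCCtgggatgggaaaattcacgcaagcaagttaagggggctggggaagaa

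H2-K1, H2-D1 and B2m each held a TGACG followed after 20 bases by ATTGG, the Y box core on the other strand. This spacing was noticed on reading the sequences. It occurred in 30 of 32851 promoter windows of the same length (0.0913%), which belonged to 26 genes, among them the non-classical heavy chain gene H2-M3. Over the 8 genes, TGACG was found in 5 and CCAAT in 6, against 17.8% and 33.8% of all windows. The kB letters were found in 5 genes, against 45.8% of all windows. The letters set for the interferon response element were found in B2m (2.98% of all windows) and those for the gamma-activated site in Psmb8 (7.02% of all windows). Only these letters were searched, so elements that depart from them would be missed, and their absence from the other promoters is not shown. The window of Psmb10 held none of the 5 motifs. Tap1 and Psmb9 are transcribed away from each other from starts 225 bases apart, so their windows share 225 bases and the same matches. In an end-to-end alignment of the H2-K1 and H2-D1 windows, 174 of 310 columns were identical (56.1%), with gaps counted as columns that differ. The TGACG begins 41 bases before the start in H2-K1 and 101 in H2-D1, so the windows are offset. The share therefore understates how alike the sequences are where they overlap. A match is a description of the letters, not of a bound site.

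The array does not keep all of these genes apart. H2-K1 and H2-D1 are named together on the probe set that the rule takes for both, so a single value stands for the pair. A second probe set that includes them is given beside it. For Tapbp the rule takes a probe set that also names Rps3a1, a ribosomal protein gene, and Tapbp's own probe set is given as Tapbp in all that follows, with the shared one named as such. Nlrc5 has 19 probe sets, which are described together further on.

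Values are log2 signals, and an array's value of one probe set is compared only with the same probe set in other arrays. Groups were compared with limma over all 19942 probe sets tested, with Benjamini-Hochberg adjustment, and a difference was called at an adjusted p under 0.05. The comparisons of each hairpin with premalignant cells share the same 2 premalignant arrays, and the comparison of all lymphomas uses them again. Replicate arrays correlated at 0.9957 to 0.9963 over the same 19942 probe sets. Ezh2 was at 12.64 and 12.70 in the premalignant arrays, 10.92 and 11.07 in shEzh2.781 and 11.20 and 11.30 in shEzh2.556. Its signal was 2.92-fold lower in the lymphomas than in premalignant cells (adjusted p = 1.31e-06, limma). Of 8 B cell markers 7 were measured. Their mean log2 signal lay between 11.77 and 11.84 in premalignant arrays, between 11.58 and 11.75 in shEzh2.781 and between 11.66 and 11.70 in shEzh2.556. Every lymphoma array was thus slightly below both premalignant arrays. Single B cell markers moved both ways in the lymphomas: Blnk, Pax5 and Ebf1 were lower, with differences of -0.48, -0.44 and -0.49, and Cd22 was higher by 0.55, all of them called. The mean of 12 neutrophil markers lay between 9.26 and 9.51 in premalignant arrays, between 7.99 and 8.59 in shEzh2.781 and between 6.43 and 6.98 in shEzh2.556.

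Over all lymphomas no class I gene passed the test against premalignant cells, and all differences were under 0.30 in size, while the hairpin groups separated at Psmb9 and Psmb10. Against premalignant cells no probe set of the class I set passed the test in shEzh2.781, and Tap1, Psmb9 and Psmb10 were lower in shEzh2.556. Psmb9 and Psmb10 also differed between hairpins, 1.35-fold and 1.59-fold higher in shEzh2.781. The heavy and light chains, Tap2, Tapbp, Psmb8 and the rule's probe set of Nlrc5 did not pass in any comparison. The plot of log2 signal by array shows these levels.

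**Figure D1:**
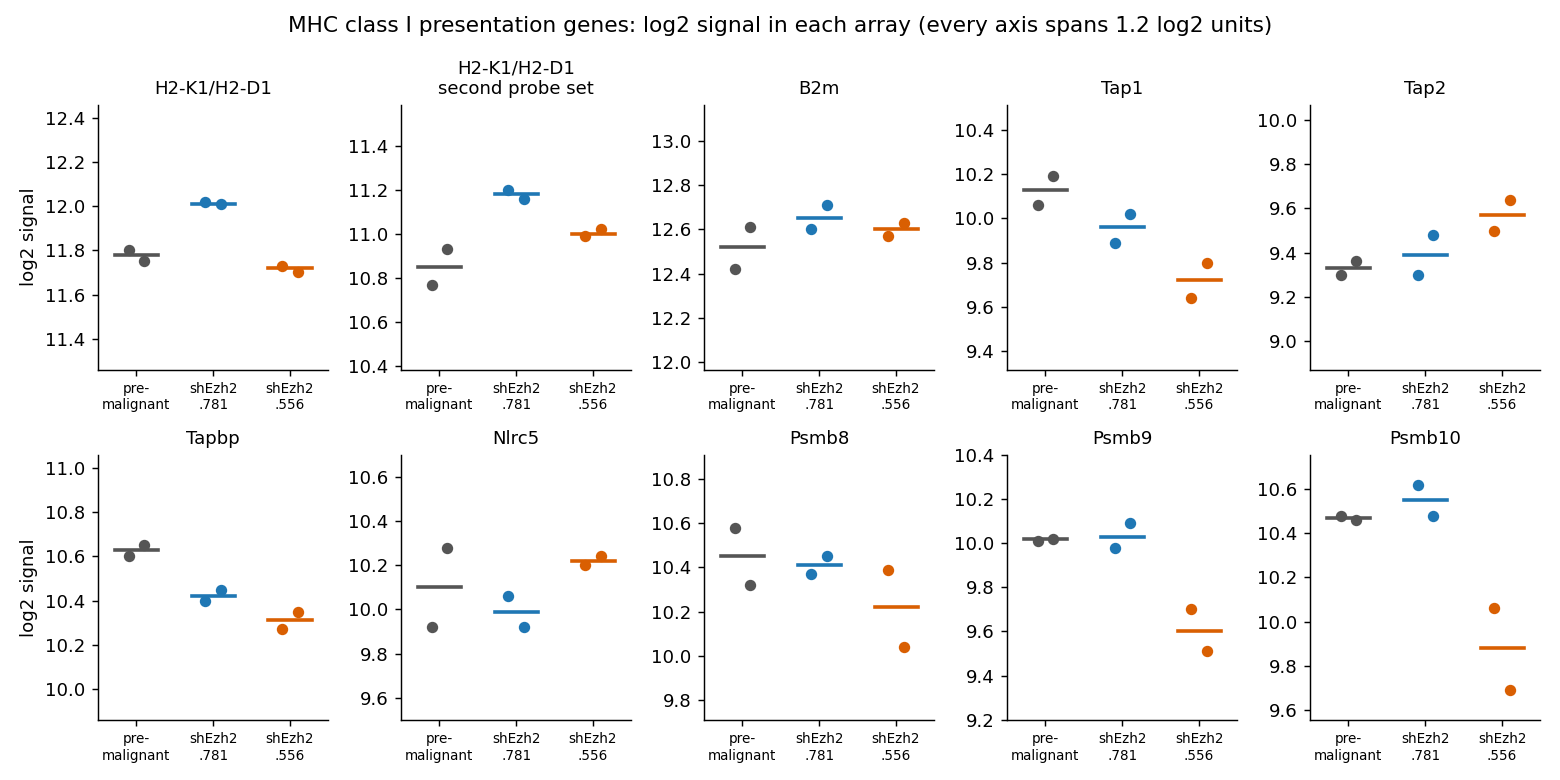
Log2 signal of each class I gene in each array, one panel per gene, with points for arrays and a line for the mean of the 2 arrays of a group; every vertical axis spans the same 1.2 log2 units. Psmb9 and Psmb10 are lower in both shEzh2.556 arrays than in the other 4 arrays, and B2m and Psmb8 overlap between groups.

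The heavy chains, which hold the peptide and are seen by the T cell receptor, were measured at 11.80 and 11.75 in the premalignant arrays by the probe set that names both H2-K1 and H2-D1. It gave 12.02 and 12.01 in shEzh2.781 and 11.73 and 11.70 in shEzh2.556. Both shEzh2.781 arrays were thus above, and both shEzh2.556 arrays below, both premalignant arrays. The shEzh2.781 difference from premalignant cells was 0.24 (log2, SE 0.11, adjusted p = 0.219, limma). In shEzh2.556 the difference was -0.06 (SE 0.11, 95% interval -0.29 to 0.18, adjusted p = 0.718). The direct difference between hairpins was 0.30 (SE 0.11, 95% interval 0.06 to 0.53) and missed the threshold (adjusted p = 0.0956). The second heavy chain probe set lay at 10.77 and 10.93 in premalignant cells, 11.20 and 11.16 in shEzh2.781 and 10.99 and 11.02 in shEzh2.556. Here all 4 lymphoma arrays were above both premalignant arrays, by 0.25 on average (SE 0.10, adjusted p = 0.126). The probe sets thus placed shEzh2.556 on different sides of premalignant cells, and neither placement was called. On both, shEzh2.781 had the highest mean.

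B2m, the light chain that every class I heavy chain needs to fold and reach the surface, was at 12.42 and 12.61 in premalignant cells, 12.60 and 12.71 in shEzh2.781 and 12.57 and 12.63 in shEzh2.556. All 3 groups overlapped. The lymphomas differed from premalignant cells by 0.11 (95% interval -0.11 to 0.33, adjusted p = 0.546), and the hairpins from each other by 0.05 (95% interval -0.21 to 0.31, adjusted p = 0.792). These intervals are wide beside the differences and do not show that B2m stayed the same.

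Tap1, the transporter subunit whose gene sits head to head with Psmb9, was at 10.06 and 10.19 in premalignant cells, 9.89 and 10.02 in shEzh2.781 and 9.64 and 9.80 in shEzh2.556. All 4 lymphoma arrays were below both premalignant arrays, with the shEzh2.556 arrays lowest. Tap1 fell in shEzh2.556 to 75.3% of the premalignant signal, a difference of -0.41 (SE 0.12, 95% interval -0.67 to -0.15, adjusted p = 0.0334, limma). In shEzh2.781 the difference was -0.17 (SE 0.12, adjusted p = 0.466), and between hairpins it was 0.24 (SE 0.12, adjusted p = 0.193), so the hairpins were not shown to differ in Tap1. Over all 4 lymphomas Tap1 was lower by an average of -0.29 (SE 0.10), with an adjusted p of 0.0853. The call in shEzh2.556 was lost without premalignant replicate 1, premalignant replicate 2 or shEzh2.556 replicate 1 (adjusted p = 0.0664, 0.118 and 0.208), and under quantile normalization (0.0705).

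Tap2, the partner subunit of the transporter, was at 9.30 and 9.36 in premalignant cells, 9.30 and 9.48 in shEzh2.781 and 9.50 and 9.64 in shEzh2.556. Its order was the reverse of that of Tap1, with both shEzh2.556 arrays above both premalignant arrays. The difference of 0.24 (SE 0.12, 95% interval -0.01 to 0.50) was not called (adjusted p = 0.168, limma), and was called under quantile normalization (0.35, adjusted p = 0.0447).

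Tapbp, which bridges the transporter and the empty heavy chain, followed Tap1. Its own probe set gave 10.60 and 10.65 in premalignant cells, 10.40 and 10.45 in shEzh2.781 and 10.27 and 10.35 in shEzh2.556. All 4 lymphoma arrays were below both premalignant arrays, and the difference of -0.26 (SE 0.09, 95% interval -0.47 to -0.05) missed the threshold (adjusted p = 0.096, limma). In shEzh2.556 alone it was -0.31 (SE 0.11, adjusted p = 0.0685). Both were called with an intensity trend and robust prior (adjusted p = 0.043 and 0.0292), and the second also under the filter on low values (0.038). The probe set shared with Rps3a1 gave 12.38 and 12.26, then 12.52 and 12.60, then 12.37 and 12.20 in the same order of groups. It did not show the fall, with a lymphoma difference of 0.10 (adjusted p = 0.579), and which of its genes it read was not tested.

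Of 5 other factors that load or trim peptides in the endoplasmic reticulum, only the tapasin homologue Tapbpl was called in any comparison. Of all tested, 11.4% were called lower in shEzh2.556 than in premalignant cells, and 5.5% higher in shEzh2.781 than in shEzh2.556. Tapbpl was at 8.57 and 8.65 in premalignant cells, 8.80 and 8.67 in shEzh2.781 and 8.23 and 8.13 in shEzh2.556. It was lower in shEzh2.556 by a difference of -0.43 (SE 0.11, adjusted p = 0.0227, limma) and 0.56 higher in shEzh2.781 than in shEzh2.556 (SE 0.11, adjusted p = 0.0115). The second call was lost without shEzh2.781 replicate 1 or shEzh2.556 replicate 2, and the first without any one of the premalignant or shEzh2.556 arrays. The first was also lost under quantile normalization (limma adjusted p = 0.0725), and both with all probe sets tested (0.0691 and 0.0803). The chaperones Calr, Canx and Pdia3 and the trimming peptidase Erap1 differed from premalignant cells by 0.03, 0.12, 0.12 and 0.07 over all lymphomas, none of them called. Erap1 was 0.39 higher in shEzh2.781 than in shEzh2.556 (adjusted p = 0.0621).

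Psmb8, the inducible subunit with chymotrypsin-like activity, was at 10.58 and 10.32 in premalignant cells, 10.37 and 10.45 in shEzh2.781 and 10.39 and 10.04 in shEzh2.556. The groups overlapped, and the pair of shEzh2.556 arrays lay far apart. The difference between hairpins was 0.20 (adjusted p = 0.341, limma) and that of shEzh2.556 from premalignant cells -0.24 (SE 0.14, 95% interval -0.54 to 0.07, adjusted p = 0.256).

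Psmb9, an inducible subunit that takes the place of Psmb6, was at 10.01 and 10.02 in premalignant cells, 9.98 and 10.09 in shEzh2.781 and 9.70 and 9.51 in shEzh2.556. Both shEzh2.556 arrays were below all 4 others, and shEzh2.781 overlapped premalignant cells. In shEzh2.556 Psmb9 fell to 75.2% of the premalignant signal (-0.41, SE 0.12, adjusted p = 0.0297, limma). It was 0.43 higher in shEzh2.781 than in shEzh2.556 (SE 0.12, 95% interval 0.17 to 0.68, adjusted p = 0.0401). The fall in shEzh2.556 was lost without premalignant replicate 1, premalignant replicate 2 or shEzh2.556 replicate 2 (adjusted p = 0.108, 0.0807 and 0.147) and under quantile normalization (0.088). The call between hairpins was lost without any one of the 4 lymphoma arrays: adjusted p was 0.0849 and 0.22 without shEzh2.781 replicates 1 and 2, and 0.0727 and 0.152 without shEzh2.556 replicates 1 and 2.

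Psmb10, which replaces Psmb7 in the immunoproteasome, moved most among these genes. It was at 10.48 and 10.46 in premalignant cells, 10.62 and 10.48 in shEzh2.781 and 10.06 and 9.69 in shEzh2.556. Both shEzh2.556 arrays were below all 4 others, while the lower shEzh2.781 array was level with the premalignant arrays. Psmb10 fell in shEzh2.556 to 66.3% of the premalignant signal, a difference of -0.59 (SE 0.13, 95% interval -0.89 to -0.30, adjusted p = 0.00988, limma). Between hairpins it was 0.67 higher in shEzh2.781 (SE 0.13, 95% interval 0.38 to 0.97, adjusted p = 0.0105). In shEzh2.781 the difference from premalignant cells was 0.08 (SE 0.13, adjusted p = 0.812). Without shEzh2.556 replicate 2, the lowest array, neither call held (adjusted p = 0.0783 against premalignant cells and 0.072 between hairpins), and without premalignant replicate 1 the first was also lost (0.0652). The direction was the same in all of these.

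The mean of the 12 neutrophil markers, given above, separated the hairpin groups the same way as Psmb9 and Psmb10. Of the 12, 11 were called higher in shEzh2.781 than in shEzh2.556, with a median difference of 1.71, beside 5.5% of all tested called higher. In premalignant cells the neutrophil markers were higher than in shEzh2.781, while Psmb9 and Psmb10 were not. Of 6 erythroid markers measured, 5 were called lower in shEzh2.781 than in shEzh2.556, beside 1999 of 19942 tested called in either direction. The mean of the 6 erythroid markers ran from 8.54 to 8.78 in premalignant arrays, from 7.30 to 7.75 in shEzh2.781 and from 8.18 to 8.49 in shEzh2.556. The part of these cells in the class I values was not tested.

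**Figure D2:**
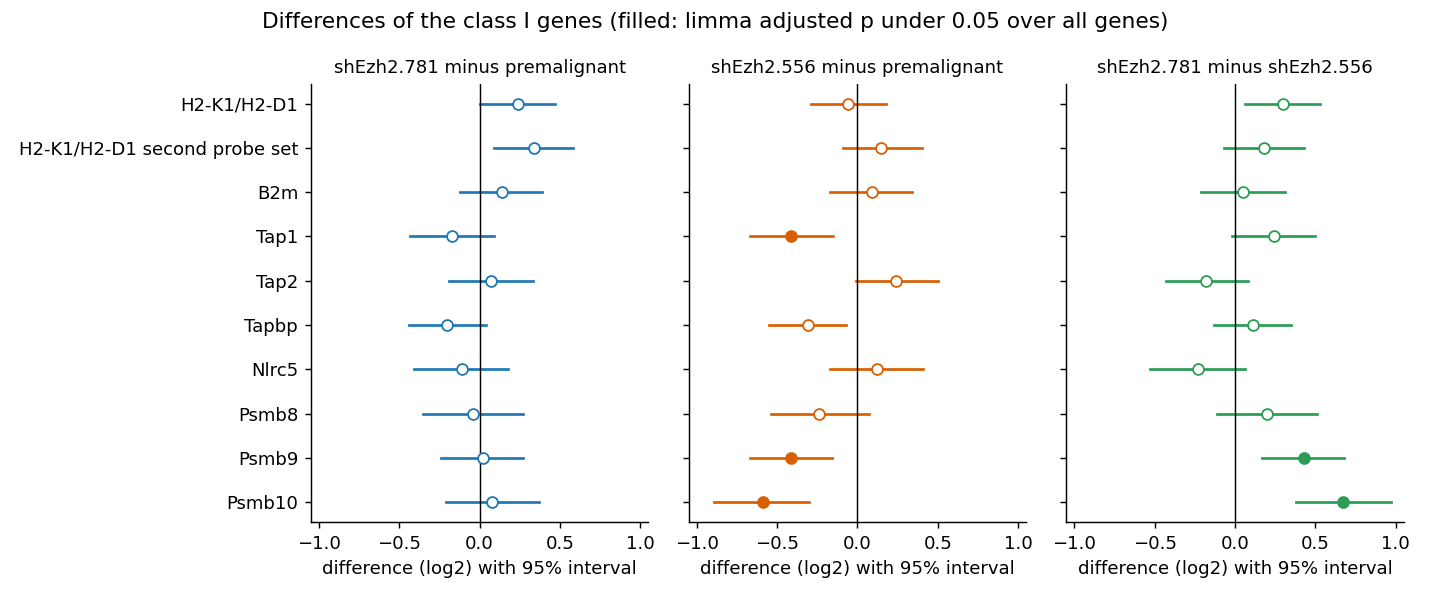
Differences on the log2 scale for each class I probe set, with lines for the 95% interval, in 3 panels for the comparisons of each hairpin with premalignant cells and of the hairpins with each other; filled points are called by limma at an adjusted p under 0.05 over all genes. No point is filled for shEzh2.781, Tap1, Psmb9 and Psmb10 are filled below 0 for shEzh2.556, and Psmb9 and Psmb10 are filled above 0 between hairpins.

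Counted over the 9 probe sets that the rule gives, 0 were called in all lymphomas against premalignant cells by limma, against a background of 15.2% of all tested. At an unadjusted p under 0.05 there were 2, Tap1 and Psmb10. All differences lay between -0.29 and 0.16, and all 95% intervals lay between -0.52 and 0.38. In shEzh2.781 against premalignant cells 0 were called, with 1 at an unadjusted p under 0.05, against a background of 10.8%. In shEzh2.556 against premalignant cells 3 were called lower (33.3%), against 11.4% of all tested called lower, and 0 higher. Between hairpins 2 were called higher in shEzh2.781 (22.2%), against 5.5% of all tested called higher. With so few members these shares are a description. Both shEzh2.781 arrays lay above both shEzh2.556 arrays in 5 of the 9 and below them in 2, beside 25.1% and 40.1% of all tested. Both shEzh2.556 arrays lay below both premalignant arrays in 4 and above them in 1, beside 26.5% and 35.8%. All 4 lymphoma arrays lay below both premalignant arrays in 1, Tap1, beside 16.1%. The median difference of the 9 was 0.00, 0.07, -0.06 and 0.24 in these 4 comparisons in turn, beside 0.03, -0.03, 0.07 and -0.07 over all tested. With Tapbp by its own probe set, it was -0.24 in shEzh2.556 against premalignant cells and 0.20 between hairpins. Their median absolute difference was 0.14 in all lymphomas and 0.11 in shEzh2.781, where that of all tested was 0.13 in both. It was 0.24 in shEzh2.556 and 0.24 between hairpins, where that of all tested was 0.20 and 0.19. No member reached the 2-fold difference from premalignant cells that 518 genes reached over all lymphomas.

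The subunits that the inducible ones replace were not called. Psmb5, Psmb6 and Psmb7, the catalytic subunits of the constitutive proteasome, were lower in shEzh2.556 than in premalignant cells by differences of -0.18, -0.26 and -0.23, and higher in shEzh2.781 than in shEzh2.556 by 0.27, 0.33 and 0.27 (adjusted p = 0.136, 0.11 and 0.114, limma). These differences had the sign of those of their inducible counterparts and were 0 of 3 called, but under centring of each array on its median 3 of 3 were called higher in shEzh2.781. Among 11 other subunits of the core particle, only Psma6 was called, beside 5.5% of all tested called higher between hairpins. It was 0.41 higher in shEzh2.781 than in shEzh2.556 (SE 0.12, adjusted p = 0.0494, limma), a call that no omission of a lymphoma array kept. The call was also lost under quantile normalization, with all probe sets tested and with a replicate block (limma adjusted p = 0.103, 0.144 and 0.0624). Psma6 was at 11.83 and 11.58 in premalignant cells, 11.88 and 11.87 in shEzh2.781 and 11.47 and 11.46 in shEzh2.556. The 11 differences between hairpins ran from -0.02 to 0.41 with a median of 0.18, so that of Psmb10 lay above this range and that of Psmb9 just above its upper end. Whether Psmb9 or Psmb10 differed more than the core subunits was not tested. The proteasome activator genes Psme1 and Psme2 and the assembly factor Pomp differed by 0.12, 0.00 and 0.15 over all lymphomas, none of them called in any comparison. Of 6 cytosolic peptidases that trim or destroy class I peptides, only Npepps was called, beside 11.4% of all tested called lower in shEzh2.556. Npepps was lower in shEzh2.556 by a difference of -0.39 (SE 0.11, adjusted p = 0.032, limma). This call was lost without any one premalignant or shEzh2.556 array. It was also lost under quantile normalization, with all probe sets tested and with a replicate block (limma adjusted p = 0.0643, 0.0823 and 0.0502).

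**Figure D3:**
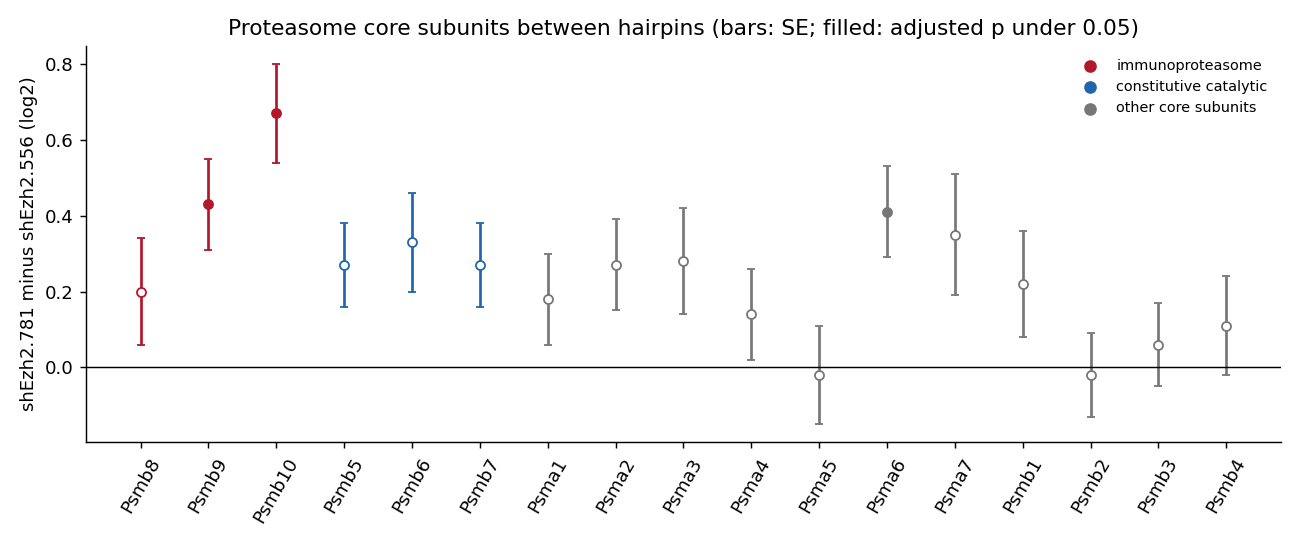
Differences between hairpins (shEzh2.781 minus shEzh2.556, log2) for the 3 immunoproteasome subunits, the 3 catalytic subunits they replace and 11 other core subunits, with SE bars and filled points where limma's adjusted p is under 0.05. Psmb10 at 0.67 is the highest point, Psmb9 at 0.43 and Psma6 at 0.41 are also filled, and the other points lie above 0 without being called, except those of Psma5 and Psmb2 just below it.

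Nlrc5, the transactivator, was at 9.92 and 10.28 in premalignant cells, 10.06 and 9.92 in shEzh2.781 and 10.20 and 10.24 in shEzh2.556 by the probe set with the highest mean. Each hairpin group overlapped the premalignant arrays, and both shEzh2.781 arrays were below both shEzh2.556 arrays. The lymphoma difference was 0.00 (95% interval -0.25 to 0.26, adjusted p = 0.99, limma). Between hairpins the difference was -0.23 (adjusted p = 0.251). Most of the other Nlrc5 probe sets gave the opposite order. Over the 19, fitted among all probe sets, 15 were higher in shEzh2.781 than in shEzh2.556 and 4 lower, with a median difference of 0.27 and a range from -0.23 to 0.80. Of the 19, 1 was called higher there (0.80, adjusted p = 0.0361), beside 0.577% of all probe sets. In 15 of the 19 both shEzh2.781 arrays were above both shEzh2.556 arrays, which was so for 23.6% of all probe sets. Against premalignant cells the median was 0.13 in shEzh2.781, with 0 called by limma beside 3.51% of all probe sets. In shEzh2.556 it was -0.15, with 1 called lower (adjusted p = 0.0266) beside 5.42%. The probe sets read 1 gene in the same 6 arrays and are not replicates of each other. The level of Nlrc5 in the hairpin groups therefore depends on the probe set: the mean over all its probe sets was 0.30 higher in shEzh2.781, against -0.23 by the rule's choice.

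**Figure D4:**
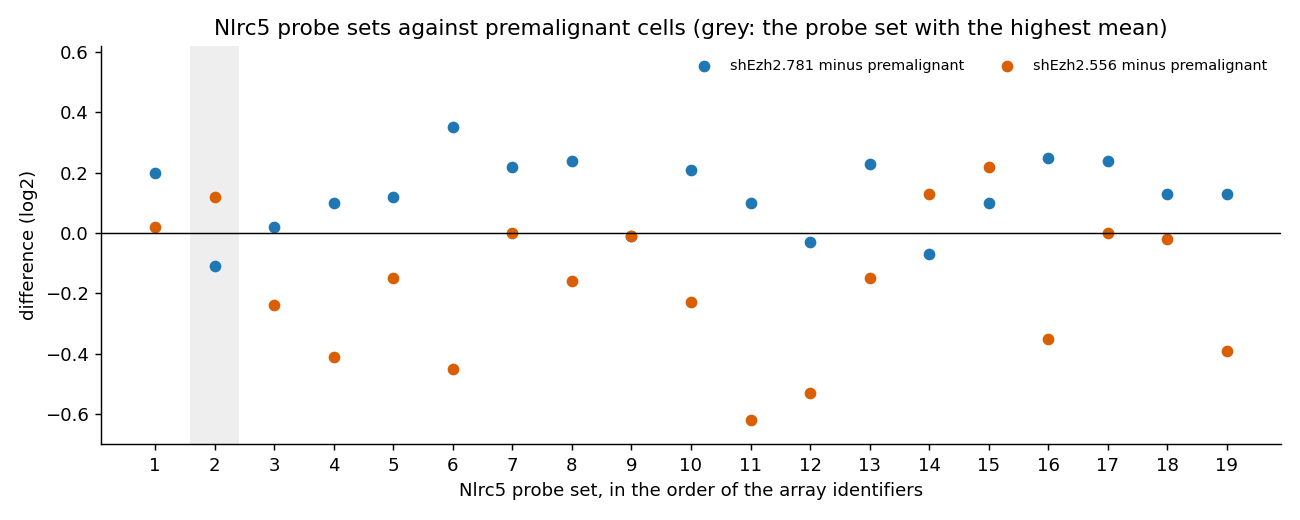
Differences from premalignant cells (log2) of the 19 Nlrc5 probe sets in shEzh2.781 and shEzh2.556, in the order of their identifiers, with the probe set that the rule takes shaded grey. Most shEzh2.781 points lie above 0 (15 of 19) and most shEzh2.556 points below 0 (14 of 19), and the shaded probe set shows the opposite order.

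Several factors that meet Nlrc5 on class I promoters, or carry interferon signals to them, were lower in the lymphomas. Of 9 genes of the complex on the X and Y boxes and its class II transactivator, 4 fell in the lymphomas against premalignant cells and 0 rose, with a median of -0.36. Of all genes tested, 9.61% were called lower in this comparison. Ciita, which acts on class II genes through the same complex, was at 9.06 and 9.03 in premalignant cells, 8.02 and 8.51 in shEzh2.781 and 7.86 and 7.68 in shEzh2.556. All 4 lymphoma arrays were well below both premalignant arrays, a difference of -1.03 (SE 0.13, adjusted p = 0.000235, limma). The Y box subunits Nfya and Nfyb and the complex member Rfxank also fell, by differences of -0.46, -0.54 and -0.42 (adjusted p = 0.00797, 0.00403 and 0.00982). With the lymphomas fitted as a single group, all of these calls but that of Ciita were lost (limma adjusted p = 0.0511, 0.144 and 0.0522). Nfyb, at 9.74 and 9.62, then 9.44 and 9.32, then 8.79 and 9.0, was in addition 0.49 higher in shEzh2.781 than in shEzh2.556 (SE 0.12, adjusted p = 0.0284). Rfx5, Creb1 and Atf1 had all 4 lymphoma arrays below both premalignant arrays without being called over all lymphomas, and Rfxap and Nfyc overlapped. In shEzh2.556 alone 5 of the 9 fell, the same 4 and Creb1 (-0.42, SE 0.13, adjusted p = 0.0435, limma), beside 11.4% of all tested called lower. In shEzh2.781 alone 2 fell, Ciita and Nfya, beside 10.8% of all tested called in either direction. The shEzh2.781 call of Nfya (-0.39, adjusted p = 0.0484, limma) was lost without any single array. It was also lost under median centring (0.146), with all probe sets tested (0.128) and with a replicate block (0.0722). That of Ciita (-0.78) was lost without premalignant replicate 1 or premalignant replicate 2, and with all probe sets tested (0.0743). Without premalignant replicate 2 the 4 falls became 2, with Nfya and Rfxank lost, and without premalignant replicate 1 Nfyb was lost. Over all lymphomas and in shEzh2.556 the fall of Ciita held whichever array was left out. The hairpin difference of Nfyb was lost without shEzh2.781 replicate 1, shEzh2.781 replicate 2 or shEzh2.556 replicate 1. It was also lost under quantile normalization (limma adjusted p = 0.0767) and with all probe sets tested (0.121).

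Of 14 measured genes of the interferon pathway, 7 fell in the lymphomas against premalignant cells and 1 rose, with a median of -0.31, beside 9.61% of all tested called lower and 15.2% called in either direction. Some markers of most other cell types fell in the same comparison. These were 4 of 9 dendritic cell markers, with Siglech at -2.74 and Ccr9 at -2.28, 5 of 9 NK cell markers and 3 of 6 erythroid markers. They also included 3 of 5 eosinophil markers with a median of -2.71, 3 of 4 platelet markers, 2 of 10 T cell markers and 12 of 12 neutrophil markers. Other markers rose: the dendritic cell marker Xcr1 was higher by 0.52. Of 11 macrophage and monocyte markers, 3 were called higher and 0 lower. The part of these cells in the falls of the interferon pathway and promoter-binding genes was not tested. Irf1, which binds interferon response elements of class I promoters, was at 9.14 and 9.24 in premalignant cells, 9.0 and 8.85 in shEzh2.781 and 8.60 and 8.63 in shEzh2.556. It fell by a difference of -0.42 over all lymphomas (SE 0.10, adjusted p = 0.0122, limma) and of -0.57 in shEzh2.556 (adjusted p = 0.00441), and the hairpins did not differ past the threshold (0.30, adjusted p = 0.0998). Both falls were lost when the mean of the gene's probe sets was used (adjusted p = 0.133 and 0.0891). Irf9 and Stat2, which form the complex that type I interferon activates, fell by differences of -0.65 and -0.42, and Irf8, a factor of the B cell and myeloid lineages, by -0.53 (adjusted p = 0.00123, 0.0169 and 0.00333). The kinase Tyk2, the receptor chain Ifnar2 and the inhibitor Socs1 fell too, so the genes that fell include a brake on the pathway. Ifngr1, the ligand-binding chain of the interferon gamma receptor, rose by 0.35 (SE 0.10, adjusted p = 0.0301), which was lost without any array but shEzh2.556 replicate 1 (adjusted p up to 0.163). Jak1 and Ifngr2 differed by 0.03 and -0.01. With the lymphomas fitted as a single group, the falls of Irf1, Stat2, Tyk2, Ifnar2 and Socs1 and the rise of Ifngr1 were not called. Their limma adjusted p was then 0.13, 0.0756, 0.0684, 0.275, 0.135 and 0.243 in turn, and the calls of Irf8 and Irf9 held. The count of 7 falls was 1 without premalignant replicate 2, 4 without shEzh2.556 replicate 1 and 2 when all probe sets were tested, so it leans on single arrays. Irf9 was the fall that held whichever array was left out (adjusted p up to 0.0232). Between hairpins 0 of the 14 were called by limma, and 3 were called higher in shEzh2.781 after centring each array on its median. Of the NF-kB subunits 4 were measured and 0 were called, with a median of -0.32 over all lymphomas.

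**Figure D5:**
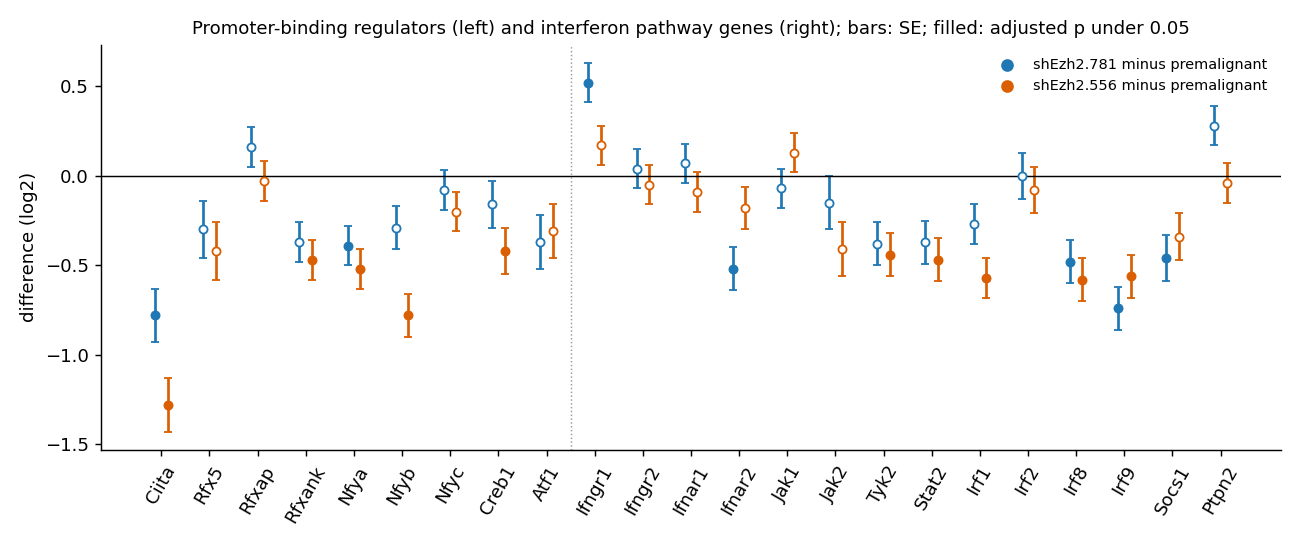
Differences from premalignant cells (log2, with SE bars) of 9 promoter-binding regulators, left of the dotted line, and 14 interferon pathway genes, right of it, in shEzh2.781 and shEzh2.556; filled points have a limma adjusted p under 0.05. Ciita is lowest in both groups at -0.78 and -1.28, and Ifngr1 in shEzh2.781 is the only filled point above 0.

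The non-classical heavy chains, close relatives of H2-K1 and H2-D1 with restricted roles, were measured for 11 of 20 listed genes, and H2-Q4 and H2-T10 were the only ones called. H2-Q4 was at 9.65 and 9.63 in premalignant cells, 9.69 and 9.42 in shEzh2.781 and 8.74 and 8.80 in shEzh2.556. Both shEzh2.556 arrays were below all 4 others, with a difference from premalignant cells of -0.88 (SE 0.12, adjusted p = 0.000385, limma) and a difference of 0.79 between hairpins (SE 0.12, adjusted p = 0.0025). H2-T10 was at 7.62 and 7.14, then 7.25 and 7.17, then 6.77 and 6.57, a difference of -0.71 in shEzh2.556 (SE 0.15, adjusted p = 0.0074) and of 0.54 between hairpins (SE 0.15, adjusted p = 0.0463). As for Psmb9 and Psmb10, shEzh2.556 was lowest, but here the premalignant mean was above that of shEzh2.781. These differences of H2-Q4 held whichever array was left out (adjusted p up to 0.029), and that between hairpins was lost with all probe sets tested (adjusted p = 0.0523). That of H2-T10 between hairpins was lost without any one lymphoma array, and that against premalignant cells without premalignant replicate 1 or shEzh2.556 replicate 2 (adjusted p up to 0.165 and 0.0691). H2-M3, with 8.25 and 8.52, then 8.17 and 8.29, then 7.99 and 8.33, was not called in any comparison. Genes of this family are near-identical in sequence, so a probe set may also read another member, and their values are uncertain for that reason. Over all listed genes of the pathway and its regulators outside the class I set, 73 were measured. In shEzh2.556 against premalignant cells 2 were called higher and 16 lower (21.9%, beside 11.4% of all tested), with a median of -0.13 beside 0.07 over all tested. Between hairpins 6 of the 73 were called higher and 1 lower, where 5.5% of all tested were called higher.

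Among themselves the class I genes did not move as one over the 6 arrays. Of 36 pairs of the 9 probe sets, with Tapbp by its own, 18 correlated below 0, and the median Pearson r was 0.10. These values describe 6 arrays in 3 groups and share each array's scaling. The highest were those of Tap1 with Tapbp (0.96) and of Psmb9 with Psmb10 (0.96), which lie on different chromosomes. Psmb8 correlated at 0.77 with each of Psmb9 and Psmb10. Psmb9 and Tap1, which share a promoter stretch, correlated at 0.74. Tap2 ran against the immunoproteasome subunits, with r of -0.89 for Psmb10 and -0.78 for Psmb9. The mean of the 9, each centred on its own mean, was 0.03 and 0.08 in premalignant cells, 0.04 and 0.08 in shEzh2.781 and -0.09 and -0.14 in shEzh2.556. The 5 genes whose values were most like this mean were Fdxacb1 (0.997), Ring1 (0.996), Fcrla (0.992), Isca2 (0.991) and the immunoglobulin segment Igkv19-93 (0.986), and 76 genes correlated above 0.95.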

How the data were processed

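Total RNA was hybridised to Affymetrix Mouse Gene 1.0 ST arrays, 1 sample per array, per the labels. The authors deposited 1 log2 value per probe set, from 2.30 to 14.2, with array medians from 6.75 to 6.91. That these are log2 values was read from their range. Background correction, normalization and summarization are not given in the sources used here, so offsets between arrays of the size of those medians remain in the differences. Titles gave the groups; the characteristics call the premalignant cells normal controls.

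Platform annotation gave 1 symbol to 21789 probe sets, several to 1621 and none to 12102. The highest-mean probe set was kept per gene (19938 genes), and 4 shared probe sets that include a member were added. All 6 arrays were fitted in 3 groups with limma 3.58.1 in R 4.3.3 (empirical Bayes, 8.5 prior and 3 residual degrees of freedom), adjusted by Benjamini-Hochberg over 19942 rows and called at 0.05. Intervals are at 95%. The small number of arrays limits the precision. The fit was tested on simulated data. Members, gene lists and tests were chosen with earlier results of these data known. Every member is given; of other listed genes, up to 4 per list with the smallest p and any called one could be named, with Ezh2 and the 5 genes most like the members' mean. Other genes named within a list, such as Rfx5 or H2-M3, were named after their values were seen. Promoters and loci are from RefSeq (GRCm38.p6), and all matched by symbol except 2 promoters. Alternatives were quantile normalization, median centring, a filter on low values, all probe sets, the mean of a gene's probe sets, single-symbol probe sets, an intensity trend with robust prior, a replicate block, the lymphomas as one group, and leaving out each array. Tables and figures used matplotlib 3.10.9, numpy 2.4.6 and pandas 2.3.3 under Python 3.11.15.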

Additional observations from a re-analysis of the deposited data

Results flagged for a closer look

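Psmb9 and Psmb10 had different differences from premalignant cells in the 2 hairpin groups. By limma's direct test shEzh2.781 was above shEzh2.556 by 0.43 for Psmb9 (adjusted p = 0.0401) and by 0.67 for Psmb10 (adjusted p = 0.0105). The hairpin difference in the neutrophil marker mean moved with them, and its part was not tested.

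The probe set that names H2-K1 and H2-D1 had both shEzh2.781 arrays above and both shEzh2.556 arrays below both premalignant arrays. The direct difference was 0.30, and its limma adjusted p of 0.0956 missed the threshold. The second heavy chain probe set did not show opposite directions, with shEzh2.556 at 0.15 above premalignant cells.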

How the results depend on the processing

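Of 558 differences of single members under an alternative, 506 kept their direction and side of the threshold. Another 22 lost a call, 8 gained one and 22 changed sign, none of the last called either way. Only 3 differences in shEzh2.556 and 2 between hairpins were called in the main fit. Most of the 558 therefore had no call to lose, and the 506 do not measure how well the calls held. Members called over all lymphomas (0) were 1 with an intensity trend and robust prior (Tap1, and also Tapbp by its own probe set, adjusted p = 0.043) and 0 to 0 with an array left out. In shEzh2.781 the count stayed 0. In shEzh2.556 (3) it was 2 under quantile normalization (Tap2 and Psmb10), 0 with all probe sets tested, where more rows are adjusted for, and 0 to 3 with an array left out: 0 without premalignant replicate 1, 1 without premalignant replicate 2, 2 without shEzh2.556 replicate 1 and 1 without shEzh2.556 replicate 2. Between hairpins (2) it was 1 under quantile normalization, 0 with all probe sets, 3 under median centring, 4 with an intensity trend and robust prior and 0 to 2 with an array left out (0 without shEzh2.556 replicate 2). The cause of these moves was not tested otherwise. The alternative that reads Tapbp by its own probe set was chosen after seeing the data.

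Same-numbered arrays did not deviate together (r of -0.0915, -0.124 and 0.0642 for the 3 pairs of groups). With 2 arrays per group this cannot exclude that the numbers pair the samples, and the labels do not state a pairing. With the replicate number as a block, the counts were 0, 0, 3 and 1 in the 4 comparisons, and Psmb9 between hairpins had an adjusted p of 0.0567.

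Among the signs that changed, the largest difference was that of Nlrc5 between hairpins, from -0.23. For Nlrc5 the mean of its probe sets gave -0.02 over all lymphomas, 0.13 in shEzh2.781, -0.17 in shEzh2.556 and 0.30 between hairpins, and median centring gave 0.01 in shEzh2.781. Median centring gave 0.08 for Psmb8 in shEzh2.781. The mean of the probe sets gave 0.10 for Tapbp in shEzh2.781 and 0.05 for H2-K1 and H2-D1 in shEzh2.556. Quantile normalization gave -0.01 for B2m between hairpins. With an array left out, Nlrc5 ran from -0.18 to 0.18 over all lymphomas, from -0.29 to 0.07 in shEzh2.781 and from -0.06 to 0.30 in shEzh2.556. In shEzh2.781 Tap2 ran from -0.02 to 0.16, Psmb8 from -0.17 to 0.09 and Psmb9 from -0.04 to 0.07. In shEzh2.556 B2m ran from -0.01 to 0.19 and the Tapbp and Rps3a1 probe set from -0.12 to 0.05, and between hairpins B2m ran from 0.00 to 0.10. All genes called numbered 3031 over all lymphomas and 1091 with these as one group; 2161 in shEzh2.781 and 1247 with all probe sets; 1999 between hairpins and 317 with all probe sets. Without an array they fell to 1972 and 1721 over all lymphomas (premalignant replicates 1 and 2), 1103 in shEzh2.781 (premalignant replicate 2), 2104 and 1949 of 3633 in shEzh2.556 (premalignant replicate 1, shEzh2.556 replicate 1), and 718 to 1204 between hairpins (any lymphoma array).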

Other observations

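Class I-like proteins encoded outside the MHC present lipids or metabolites or have other roles. Of 5 measured, 3 fell and 1 rose in the lymphomas against premalignant cells by limma, with a median of -0.42, beside 9.61% of all tested called lower and 15.2% in either direction. Cd1d1, which presents lipids to natural killer T cells and is high on some B cell subsets, was at 8.78 and 8.67 in premalignant cells, 7.55 and 7.54 in shEzh2.781 and 6.91 and 6.62 in shEzh2.556. The 3 groups did not overlap, and the lymphoma difference was -1.57 (SE 0.11, adjusted p = 2.39e-06). Between hairpins Cd1d1 was 0.78 higher in shEzh2.781 (SE 0.13, adjusted p = 0.00313). Mr1, which presents vitamin B metabolites, fell by a difference of -0.42 (adjusted p = 0.0115), and Cd1d2, a near copy of Cd1d1 whose probes may read both, by -0.46 (adjusted p = 0.0233). Hfe, an iron regulator, rose by 0.36 (adjusted p = 0.041). With the lymphomas fitted as a single group, the calls of Mr1, Cd1d2 and Hfe were lost (limma adjusted p = 0.0739, 0.164 and 0.205). The differences of Cd1d1 held whichever array was left out (adjusted p up to 0.0317), and that between hairpins was lost with all probe sets tested (adjusted p = 0.0597), while without premalignant replicate 2 the 3 falls became 1, that of Cd1d1. Without premalignant replicate 1 the fall of Mr1 was lost, and that of Cd1d2 was lost without shEzh2.781 replicate 2 or either shEzh2.556 array. The rise of Hfe was lost without any array but shEzh2.556 replicate 2 (adjusted p up to 0.219). Of 9 listed ligands of the natural killer receptor NKG2D, 2 were measured, and H60b rose by 0.83 (SE 0.11, adjusted p = 0.00035), whichever array was left out. H60b was at 5.77 and 5.84 in premalignant cells, 6.51 and 6.83 in shEzh2.781 and 6.52 and 6.66 in shEzh2.556. These signals lay below or within the range of the array medians (6.75 to 6.91).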
